A study of Mus musculus with 6 samples.

Results

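Leukocyte integrins are described here through the transcripts of 10 subunit genes in mouse bone marrow-derived macrophages with and without MSR1, a scavenger receptor of macrophages. The genes were taken by symbol: Itgam, Itgax, Itgal, Itgb2, Itga4, Itgb7, Itga6, Itgav, Itgb5 and Itgb1. They were selected on measured values of the same comparison, in which Itgb7 had been seen higher in the knockout. Their differences, and any calls on them, are therefore given as a description and not read as tests. The 10 symbols matched 11 of the 52550 rows of the count table, because a readthrough gene model at the Itgam locus (Gm49368) carries the Itgam symbol as well, and all 11 were among the 16402 genes that passed the filter on low counts.

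The data were gene counts from RNA sequencing of 3 MSR1 KO and 3 MSR1 WT macrophage libraries, from C57BL/6 mice. The marrow cells were matured with M-CSF at 25 ng/ml for 7 days and then kept for 48 h in a transwell co-culture with bone marrow mesenchymal stromal cells (BMSCs), which both groups shared. The chambers were separated by a porous membrane, with the macrophages below. The knockout was carried by the animals themselves and not by a macrophage-specific driver, and the labels gave neither an age nor the animal behind each library, so p-values measure only the spread between these libraries.

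Integrins are receptors made of an alpha and a beta chain that hold a cell to matrix or to another cell and signal in both directions. The beta chain of Itgb2 pairs with the alpha chains of Itgal (LFA-1), Itgam (CD11b, complement receptor) and Itgax (CD11c) and is found on leukocytes, where these receptors bind ICAMs and complement fragments. The alpha chain of Itga4 pairs with Itgb1 to bind VCAM-1 and fibronectin, or with Itgb7 to bind MAdCAM-1 in gut homing. Itga6 encodes a laminin receptor chain, and Itgav pairs with Itgb5 to bind vitronectin and MFG-E8, a bridge to dying cells.

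Itgax, Itgb7 and Itgam stand at the centre of the results, as the lowest member in the knockout relative to WT, the highest, and the gene that lies next to Itgax on chromosome 7. Their RefSeq promoter windows, 250 bases before to 50 after the transcription start on build GRCm38.p6, are printed 5′ to 3′ on the gene's strand, at chr7:128129300-128129599 (plus strand) for Itgax, chr15:102231886-102232185 (minus strand) for Itgb7 and chr7:128062390-128062689 (plus strand) for Itgam. Capitals mark matches on either strand to GAGGAA, a purine-rich core of the kind bound by the myeloid factor PU.1, to TGTGGT, a RUNX core, or to GGGCGG, a GC box.
Itgax: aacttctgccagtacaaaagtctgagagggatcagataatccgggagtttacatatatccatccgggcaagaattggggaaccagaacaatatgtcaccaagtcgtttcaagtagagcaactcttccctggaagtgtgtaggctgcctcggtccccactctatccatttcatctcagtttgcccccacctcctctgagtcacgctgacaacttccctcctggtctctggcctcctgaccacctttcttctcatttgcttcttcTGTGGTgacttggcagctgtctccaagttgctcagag
Itgb7: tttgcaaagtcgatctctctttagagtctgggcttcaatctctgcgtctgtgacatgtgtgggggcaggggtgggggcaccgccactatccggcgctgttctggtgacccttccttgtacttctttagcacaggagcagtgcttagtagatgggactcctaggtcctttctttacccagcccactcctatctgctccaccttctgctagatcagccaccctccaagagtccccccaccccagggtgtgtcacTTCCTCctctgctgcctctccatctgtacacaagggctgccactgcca
Itgam: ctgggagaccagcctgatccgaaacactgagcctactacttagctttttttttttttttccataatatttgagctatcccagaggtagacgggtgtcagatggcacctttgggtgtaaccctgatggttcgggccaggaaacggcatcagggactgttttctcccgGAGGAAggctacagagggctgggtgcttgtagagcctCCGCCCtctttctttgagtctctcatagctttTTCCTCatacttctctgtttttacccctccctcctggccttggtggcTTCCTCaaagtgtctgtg
The Itgax window held 1 TGTGGT match and none of the other motifs, in the forward direction near the start site. The Itgb7 window held 1 GAGGAA match, read on the opposite strand, and the Itgam window held 3, with 1 GC box. Among 32851 promoter windows of this length, 28.3% held GAGGAA, 16.8% held TGTGGT and 35.7% held GGGCGG, so each match is a common feature. Promoter windows were also read for Itga4, Itgav, Itgb5 and Itgb1, of which Itgav had 2 GAGGAA matches, Itgb1 had 1 and Itga4 and Itgb5 had 0. Of the same windows, the one of Itgb5 had 3 GC boxes and those of Itga4, Itgav and Itgb1 had 1 each. The Itga4 window also held 1 TGTGGT match, and those of Itgav, Itgb5 and Itgb1 held 0. Windows for Itgal, Itgb2 and Itga6 were not analysed here.

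The 6 libraries held between 36143518 and 47417448 counts. Msr1 itself, checked first, lay between 43.0 and 59.0 CPM (counts scaled to a common library depth by the TMM method) in the KO libraries and between 183 and 223 in the WT libraries, so transcript counts were lower in the knockout but not at 0. The macrophage genes Csf1r and Lyz2 were abundant in every library, at 4333 CPM or more and 12643 CPM or more, and 1 of 10 macrophage markers (Fcgr1, an IgG receptor) was called higher in the knockout, with a summed level of 24137 to 25273 CPM in KO and 23970 to 26629 CPM in WT.

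Between the genotypes, the alpha chain transcript Itgax was far lower in MSR1 KO macrophages and the beta chain transcript Itgb7 was higher by 2.08-fold, whereas the other members differed by less than 1.5-fold. At an adjusted p under 0.05 in the edgeR quasi-likelihood fit, 1 of the 10 members was called higher (Itgb7) and 2 lower (Itgax and Itga6), where 2.25% of all tested genes were called higher and 2.66% lower. By the study's definition, a fold over 1.5 with an unadjusted p under 0.05, 1 member was higher and 1 lower, beside 3.59% and 5.05% of all tested genes. All KO libraries lay above all WT libraries for 2 members (Itga4 and Itgb7), as for 12.1% of tested genes, and below them for 4 (Itgax, Itga6, Itgb2 and Itgb1), as for 13.4%. The contrast had served to choose the members, and nothing is read from these counts. The median log2 fold change was -0.03 over the members and -0.002 over all tested genes.

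**Figure D1:**
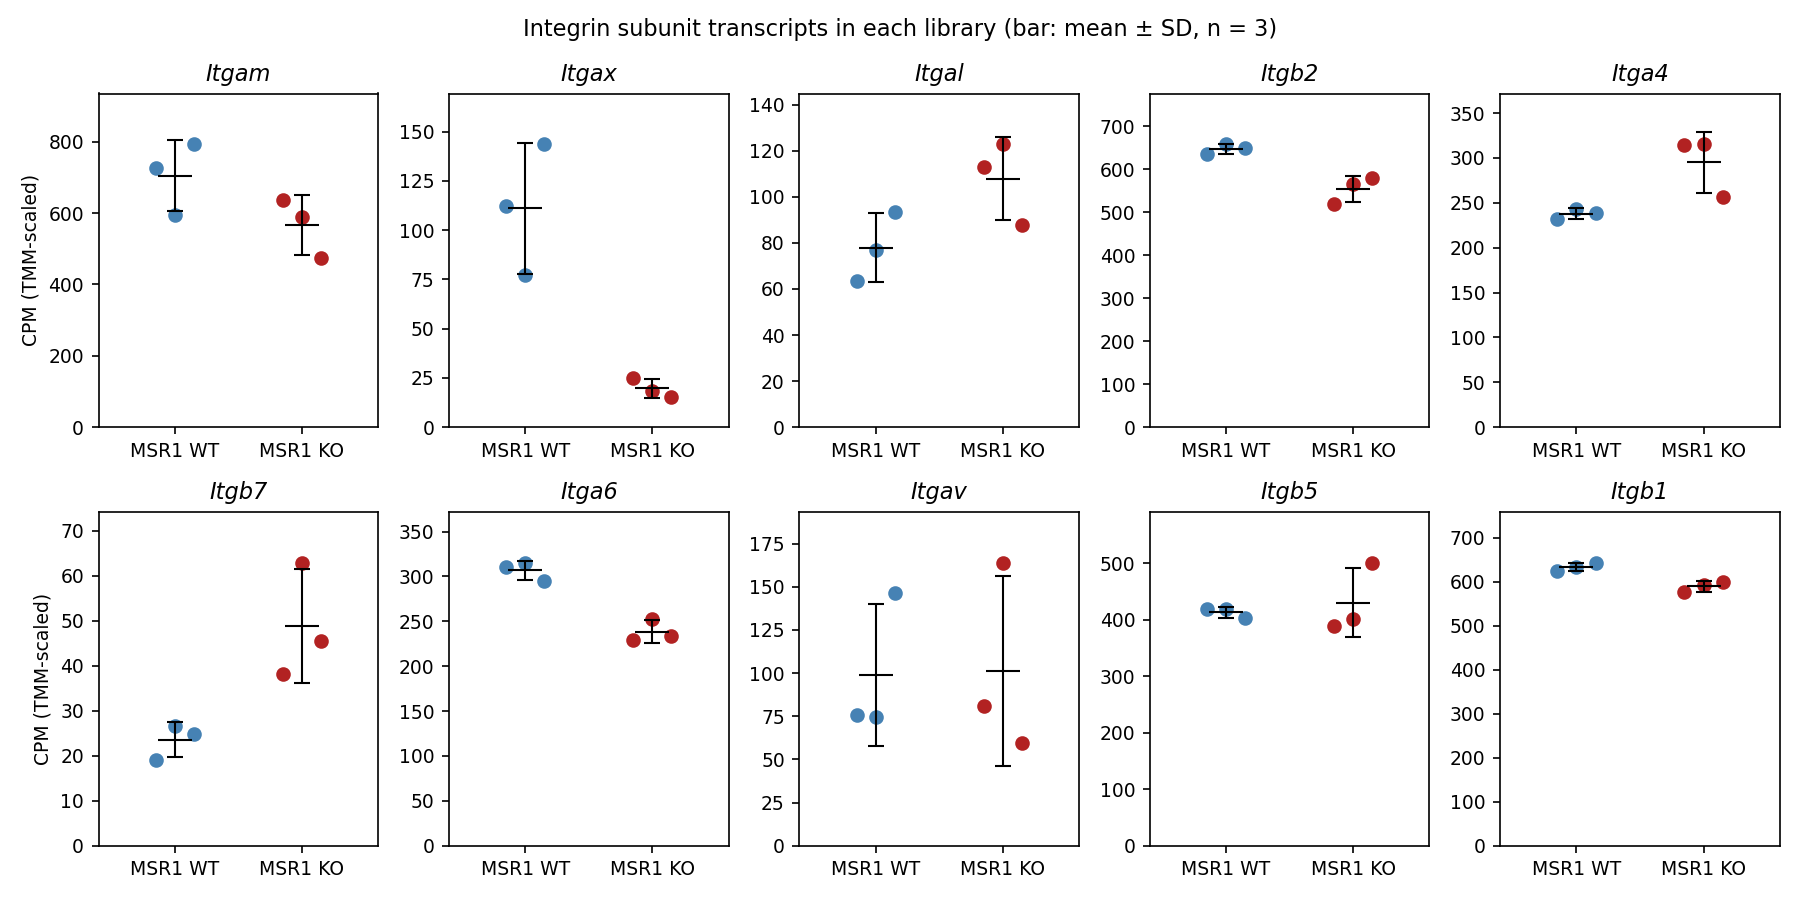
TMM-scaled CPM (vertical axes, each from 0) of the 10 integrin subunits in the 3 MSR1 WT (blue) and 3 MSR1 KO (red) libraries, each point a library and each bar the mean ± SD. Itgax lies between 15.4 and 25.2 CPM in KO and between 77.4 and 144 CPM in WT, Itgb7 lies above WT in every KO library, and Itgav has 1 high library in each group.

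Itgax (ENSMUSG00000030789.9, chromosome 7, 128129547 to 128150657, plus strand) encodes CD11c, a chain of complement receptors on dendritic cells and many tissue macrophages. Its counts were 905, 732 and 714 in MSR1 KO libraries 1, 2 and 3 and 4637, 3670 and 5931 in MSR1 WT libraries 1, 2 and 3. On the CPM scale these were 25.2, 18.4 and 15.4 against 112, 77.4 and 144. The groups were far apart, with the highest KO library under the lowest WT library. The level was 19.6 ± 5.04 CPM in KO and 111 ± 33.1 CPM in WT (SD, n = 3), a log2 fold change of -2.50 ± 0.25 (SE), or 5.66-fold lower in the knockout. With any single library left out the log2 fold change stayed between -2.71 and -2.27.

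Itgam (ENSMUSG00000030786.18, chromosome 7, 128062640 to 128118491, plus strand) ends upstream of Itgax on the same strand and encodes CD11b, the alpha chain of the major complement receptor of myeloid cells. Its level was 637, 588 and 474 CPM in the KO libraries and 727, 596 and 793 CPM in the WT libraries. The ranges overlapped, since KO 1 stood above WT 2. The means were 567 ± 83.4 and 705 ± 100 CPM, with a log2 fold change of -0.32 ± 0.13. The readthrough model Gm49368 shares 68.7% of the exon bases of Itgam, and how reads in the shared exons were divided is not given in the sources used here. It stood at 280, 350 and 387 CPM in KO and 297, 375 and 297 CPM in WT, with a log2 fold change of 0.07 ± 0.14. Summed over both rows, an alternative added after the data were seen, the log2 fold change of Itgam was -0.18. Itgad, the next alpha chain gene past Itgax in the same direction, named for its place after its values were seen, was scarce, at 0.22 to 0.52 CPM in KO and 0.34 to 1.16 CPM in WT, and did not pass the test, with a log2 fold change of -0.85 ± 0.65 and an adjusted p of 0.546 by edgeR.

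Itgal (ENSMUSG00000030830.18, chromosome 7, 127296260 to 127335138, plus strand) encodes the alpha chain of LFA-1, the receptor of lymphocytes and monocytes for ICAM-1. It was read at 113, 123 and 87.9 CPM in KO and 63.5, 76.9 and 93.5 CPM in WT. The groups overlapped, with KO 3 under WT 3. The means were 108 ± 18.0 and 78.0 ± 15.0 CPM, a log2 fold change of 0.47 ± 0.16, which ran opposite to Itgax and Itgam.

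Itgb2 (ENSMUSG00000000290.13, chromosome 10, 77530252 to 77565708, plus strand) encodes CD18, the beta chain that all these alpha chains need to reach the surface. Its level was 520, 565 and 579 CPM in KO and 635, 658 and 650 CPM in WT. Every KO library lay below every WT library, by a small margin, with means of 555 ± 31.0 and 648 ± 12.0 CPM and a log2 fold change of -0.22 ± 0.07.

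Transcript levels were then scaled by exon length, in CPM per kb, to set the alpha chains of Itgb2 against each other. As a share of the sum of Itgam, Itgax and Itgal, Itgax made up 3.51, 2.74 and 2.88% in the KO libraries and 13.2, 11 and 14.8% in the WT libraries. The Itgal share was 11.5, 13.4 and 12.1% in KO and 5.44, 8 and 7.05% in WT. Itgam made up most of the sum in both genotypes, with 84.6 ± 0.66% in KO and 80.2 ± 1.77% in WT. In the knockout Itgal thus stood above Itgax among the Itgb2 partners in every library, and in WT Itgax stood above Itgal in every library.

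Itgb7 (ENSMUSG00000001281.9, chromosome 15, 102215995 to 102231935, minus strand) encodes the beta chain that joins the alpha chains of Itga4 and Itgae in lymphocytes and mast cells. Its counts were 1369, 2504 and 2121 in the KO libraries and 789, 1261 and 1029 in the WT libraries. Scaled for depth, it was 38.1, 62.9 and 45.6 CPM in KO and 19.1, 26.6 and 24.9 CPM in WT. All KO libraries lay above all WT libraries, and KO 2 stood highest. The means were 48.9 ± 12.7 and 23.5 ± 3.90 CPM, and the log2 fold change was 1.05 ± 0.20, or 2.08-fold. It ran from 0.83 to 1.21 with a library left out. The edgeR call, a description only since Itgb7 was chosen on this contrast, was lost without KO 3 (1.11), WT 1 (0.93) or WT 2 (1.15).

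Itga4 (ENSMUSG00000027009.18, chromosome 2, 79255426 to 79333123, plus strand), the alpha partner of Itgb7 and Itgb1, was read at 314, 315 and 256 CPM in KO and 232, 244 and 239 CPM in WT. All KO libraries again lay above all WT libraries, with KO 3 close to them. The means were 295 ± 33.8 and 238 ± 5.90 CPM, a log2 fold change of 0.31 ± 0.09. Of its exon bases, 8.0% overlap Cerkl on the opposite strand, and the strand setting of the counting is not given in the sources used here. Itgae, the other alpha partner of Itgb7, also named after its values were seen, was at most 0.61 CPM in any library.

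Itgb1 (ENSMUSG00000025809.15, chromosome 8, 128685654 to 128733200, plus strand), the shared beta chain of matrix-binding integrins, was 576, 593 and 600 CPM in KO and 625, 633 and 643 CPM in WT. The groups did not overlap, though they differed by 1.07-fold, with means of 590 ± 12.4 and 633 ± 9.12 CPM and a log2 fold change of -0.10 ± 0.06. Per exon length, Itgb7 made up 8.88, 13.5 and 10.1% of the sum of Itgb1 and Itgb7 in the KO libraries and 4.32, 5.83 and 5.4% in the WT libraries. Itgb1 was thus the main beta partner transcript for Itga4 in both genotypes.

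Itga6 (ENSMUSG00000027111.15, chromosome 2, 71745616 to 71858416, plus strand), a laminin receptor chain, was 230, 253 and 234 CPM in KO and 311, 315 and 295 CPM in WT. The groups were separate and tight, with means of 239 ± 12.4 and 307 ± 10.4 CPM. The log2 fold change was -0.36 ± 0.07, between -0.41 and -0.33 with a library left out. The edgeR call, again a description only, was lost without KO 1, KO 3, WT 1 or WT 2.

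Itgav (ENSMUSG00000027087.11, chromosome 2, 83724397 to 83806916, plus strand), the alpha chain of vitronectin receptors, was 80.7, 164 and 59.3 CPM in KO and 75.5, 74.3 and 146 CPM in WT. One library of each genotype, KO 2 and WT 3, stood well above the other 4, and the groups overlapped across nearly their whole range. The log2 fold change was 0.04 ± 0.39, and it ran from -0.50 without KO 2 to 0.43 without WT 3. Its beta partner Itgb5 (ENSMUSG00000022817.14, chromosome 16, 33829665 to 33949153, plus strand) was 389, 402 and 501 CPM in KO and 419, 418 and 403 CPM in WT. The WT libraries lay inside the KO range, KO 3 stood highest, and the log2 fold change was 0.06 ± 0.10. The high libraries of Itgav were not high for Itgb5.

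**Figure D2:**
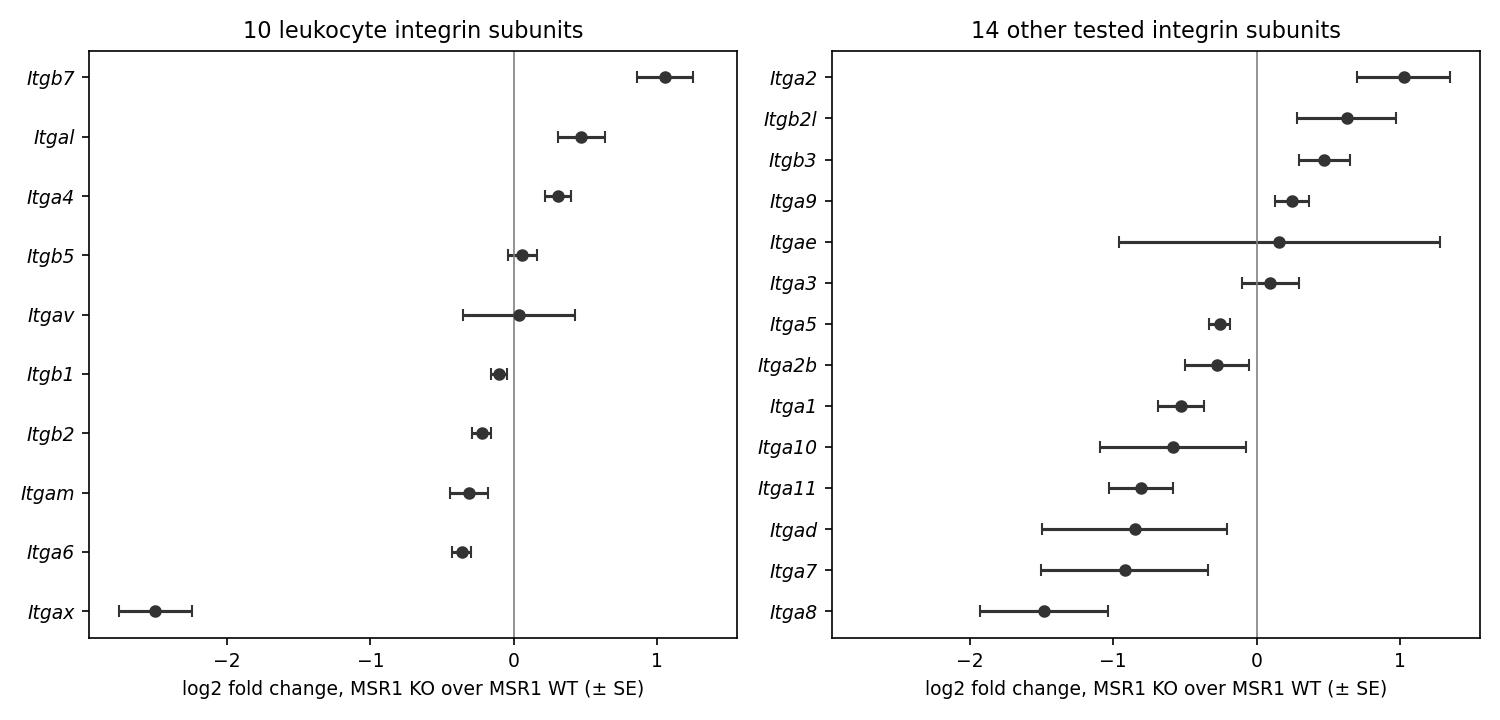
Log2 fold change of MSR1 KO over MSR1 WT (horizontal axis, point ± SE, 3 libraries a group) of the 10 leukocyte integrin subunits, left, and of the 14 other integrin subunits that were tested, right. Itgax lies at -2.50 and Itgb7 at 1.05, and the other members lie between -0.36 and 0.47.

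The order of the members by level, in CPM per kb of exon, also differed between the genotypes. In WT it ran from Itgb2 (212 ± 3.92) and Itgb1 (155 ± 2.23) through Itgam (140 ± 20) and Itgb5 (116 ± 2.65) to Itga6 (34.0 ± 1.15). Below these lay Itgax (23.1 ± 6.90), Itga4 (17.0 ± 0.42), Itgal (11.9 ± 2.29), Itgav (9.19 ± 3.84) and Itgb7 (8.50 ± 1.41). Neighbours whose ranges over the libraries overlapped, and which were therefore not separated, were Itgb1 and Itgam, Itgax and Itga4, Itgal and Itgav, and Itgav and Itgb7. In KO, Itgb2 (182 ± 10.2), Itgb1 (144 ± 3.05), Itgb5 (121 ± 17.2) and Itgam (113 ± 16.6) came first, with Itgb5 and Itgam not separated. Itga6 (26.4 ± 1.38) was followed by Itga4 (21.1 ± 2.42), Itgb7 (17.6 ± 4.59), Itgal (16.4 ± 2.74) and Itgav (9.43 ± 5.14), where each of the last 3 overlapped the one before it. Itgax (4.09 ± 1.05) came last, below the range of Itgav. Itgax thus stood at rank 6 in WT and rank 10 in KO, and Itgb7 at rank 10 in WT and rank 7 in KO. These ranks depend on the length used. Per kb of coding sequence, Itgax stood at rank 7 in WT and rank 10 in KO. Itgb7 then stood at rank 10 in WT and rank 9 in KO. On coding length Itgb1 also stood above Itgb2 in KO, at 246 against 240 CPM per kb, whereas Itgb2 stayed first in WT.

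**Figure D3:**
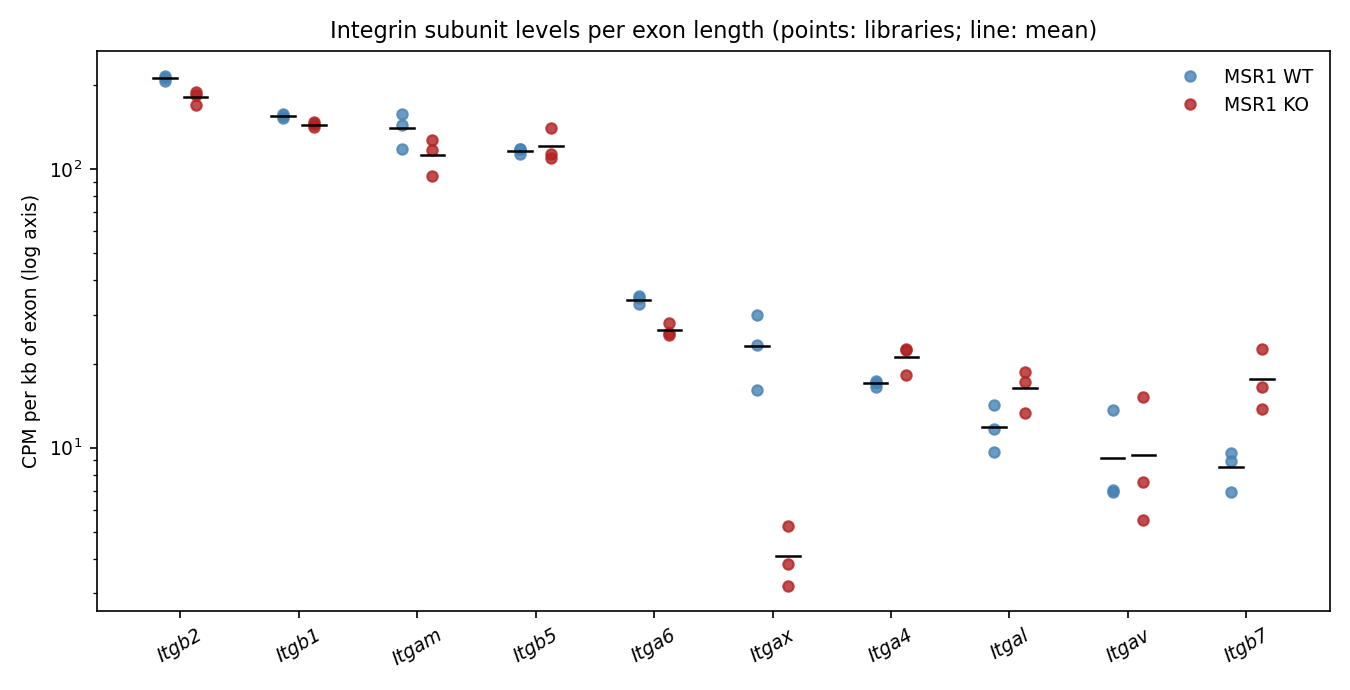
Level of each member in CPM per kb of exon (log axis), each point 1 of the 3 MSR1 WT (blue) or 3 MSR1 KO (red) libraries and each line their mean, ordered by the WT mean. On this scale Itgb2 is the most abundant in both genotypes. The mean of Itgax is 23.1 in WT and 4.09 in KO, where it is below every other member.

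The other integrin subunits did not hold a call. Of 17 such genes 14 were tested, and 0 were called higher or lower by edgeR, although 2 were higher and 4 lower at an unadjusted p under 0.05, and DESeq2 called 0 higher and 3 lower (Itga1, Itga8 and Itga11, named after their calls were seen). Their log2 fold changes ran from -1.48 to 1.03, with a median of -0.27. Itga5, the fibronectin receptor chain and the most abundant of them, was 110 to 127 CPM in KO and 138 to 144 CPM in WT, at -0.26 ± 0.08 and an adjusted p of 0.101. Itga9 was 53.1 to 62.4 CPM in KO and 42.9 to 56.5 CPM in WT, with an adjusted p of 0.319. Itga11, a collagen receptor chain named after its values were seen, was 14.3 to 24.1 CPM in KO and 24.9 to 35.9 CPM in WT, at -0.81 ± 0.22 and an adjusted p of 0.0853 by edgeR. Itgb6 had no count in any library, which allows up to 3 counts per library, and Itgb4 and Itgb8 did not pass the filter on low counts.

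Among the ligands, 5 of 25 tested genes fell in the knockout and 0 rose by edgeR. At an unadjusted p under 0.05, 2 were higher and 12 lower, and DESeq2 called 1 higher and 9 lower. Over all tested genes DESeq2 called 720 higher and 848 lower, and edgeR 369 and 436. No share of all tested genes was taken at the unadjusted threshold, so nothing is read from the unadjusted counts of any list. The ligand list had a median of -0.37 on the log2 fold change scale. Spp1, which encodes osteopontin, a ligand of integrins that hold Itgav or Itga4, fell from 979, 1188 and 1181 CPM in WT to 639, 633 and 665 CPM in KO. The groups were far apart, at -0.79 ± 0.09 and an adjusted p of 0.00654. Mfge8, whose product joins dying cells to the receptors of Itgav, fell from 169, 121 and 213 CPM to 61.0, 63.9 and 43.3 CPM, at -1.58 ± 0.22 and an adjusted p of 0.0139. The laminin chain genes Lama2 (-1.66 ± 0.37, adjusted p = 0.0428 by edgeR, at 3.37 CPM or less) and Lamb1 (-0.63 ± 0.09, adjusted p = 0.0162 by edgeR) fell as well, as did Lamb2 (-0.61 ± 0.13, adjusted p = 0.0368 by edgeR), named after its value was seen. Laminins are the ligands of Itga6. Fn1, the fibronectin gene, stood at 545 to 733 CPM in KO and 797 to 851 CPM in WT and did not pass the test, with an adjusted p of 0.0883. Of the ligands of the Itgb2 receptors, Icam1 lay at 67.7 to 77.4 CPM in KO and 58.4 to 79.4 CPM in WT, named after its values were seen. Spp1 was called lower with any single library left out, whereas the count of ligands called lower was 1 without KO 1 or WT 1, 2 without WT 2 and 3 without KO 3. Madcam1, Vtn and Lamc3, of which the first encodes the gut ligand of Itgb7, had no count in any library.

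Genes that switch integrins on are set beside the 2.25% of all tested genes called higher and the 2.66% called lower by edgeR. Of 15 tested activation genes 1 fell and 0 rose by edgeR, with 6 higher and 2 lower at an unadjusted p under 0.05, and DESeq2 called 2 higher and 2 lower. The list had a median log2 fold change of 0.14. Tln2, a talin that binds beta chain tails, fell by 0.65 ± 0.12 on the log2 scale (adjusted p = 0.0267 by edgeR), from 15.8 to 19.7 CPM in WT to 11.3 to 11.9 CPM in KO. Tln1, the far more abundant talin, was 963 to 1097 CPM in KO and 998 to 1109 CPM in WT, at -0.06 ± 0.07 and an adjusted p of 0.736. Fyb, the adaptor known as ADAP, was 679 to 752 CPM in KO and 599 to 660 CPM in WT, with an adjusted p of 0.223. Of 8 inhibitors 1 fell and 0 rose by edgeR, with 2 higher and 2 lower at an unadjusted p under 0.05, DESeq2 calling the same numbers as edgeR, and a median of 0.05. This was Kank2, which binds talin, at -0.56 ± 0.11 and an adjusted p of 0.029. Flna, the actin cross-linker that competes with talin, had -0.28 ± 0.11 with an adjusted p of 0.218, and Sipa1, which turns Rap1 off, had 0.11 ± 0.06 with an adjusted p of 0.41. With 1 library left out, Tln2 was called lower only without WT 2 and Kank2 only without WT 3.

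Of 23 adaptors and kinases of adhesion sites, 5 fell and 2 rose by edgeR, with a median of -0.07. The kinase gene Src fell by 0.88 ± 0.16 on the log2 scale (adjusted p = 0.0267 by edgeR), from 19.4 to 22.4 CPM in WT to 9.77 to 14.4 CPM in KO. The actin linkers Vcl (-0.64 ± 0.11, adjusted p = 0.0234 by edgeR), Actn1 (-0.58 ± 0.08, adjusted p = 0.0155 by edgeR) and Parva (-0.55 ± 0.13, adjusted p = 0.0493 by edgeR) fell, and so did Actn4 (-0.33 ± 0.07, adjusted p = 0.0319 by edgeR), named after its value was seen. Ap3m1, a gene on the opposite strand, overlaps 25.5% of the Vcl exon bases. Lyn, a Src family kinase of myeloid cells, rose from 392 to 429 CPM in WT to 505 to 612 CPM in KO, at 0.43 ± 0.09 and an adjusted p of 0.0326. Syk, the kinase that acts below Itgb2 receptors, was 531 to 597 CPM in KO and 577 to 621 CPM in WT, with an adjusted p of 0.639. These calls were sensitive to the libraries: of the adaptors and kinases, 0 were called lower without WT 1, 1 without KO 1 (Src), 1 without WT 2 (Actn1), 2 without KO 2 or WT 3 (Vcl and Actn1) and 3 without KO 3, and Lyn was not called without KO 1, KO 2, WT 1 or WT 2.

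**Figure D4:**
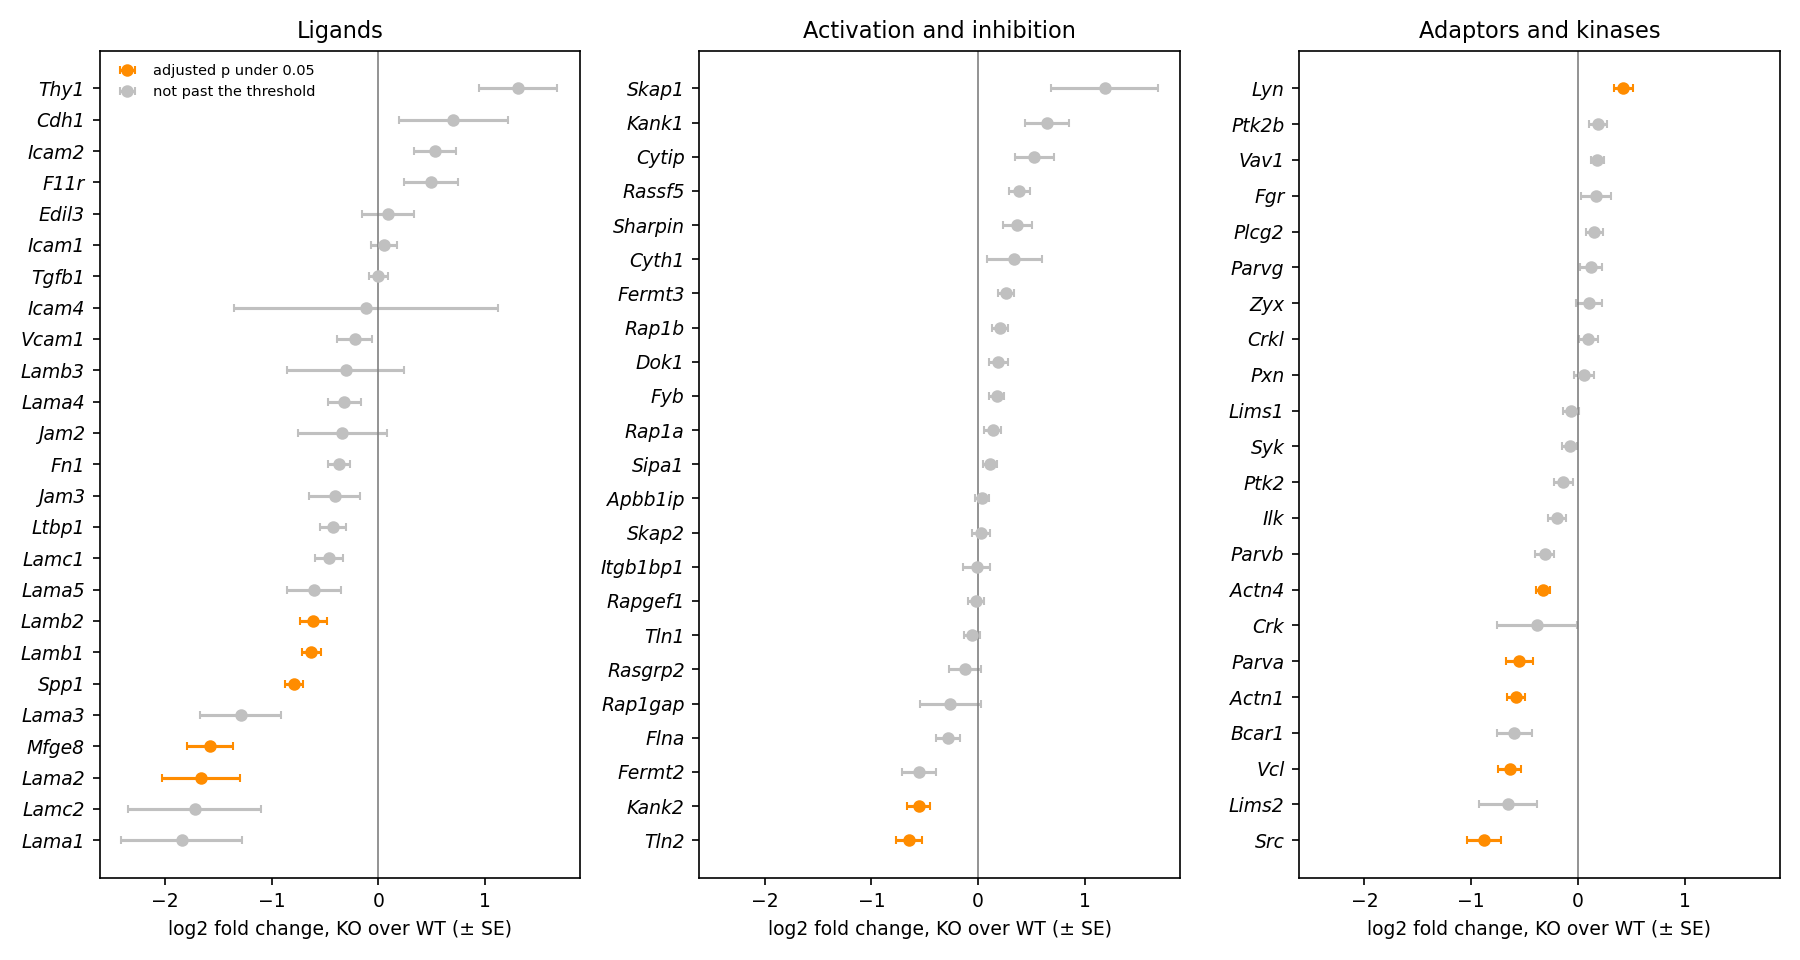
Log2 fold change of MSR1 KO over MSR1 WT (horizontal axis, point ± SE, 3 libraries a group) of 25 ligands, 23 activation and inhibition genes and the reported adaptors and kinases, orange where the adjusted p was under 0.05. Spp1 and Mfge8 among the ligands and Src and Vcl among the adaptors lie left of 0, and Lyn lies right of it.

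Markers of other cells moved with some of these results, and in bulk RNA fewer cells of a type and less RNA per cell cannot be told apart. Beside the higher Itgb7, 3 of 4 monocyte markers rose, among them Plac8 (1.89 ± 0.15) and Ly6c2 (1.40 ± 0.23), with a summed level of 299 to 388 CPM in KO and 167 to 286 CPM in WT. Plac8 was called with any library left out, and the count was 1 without KO 1, KO 2, WT 1 or WT 2 and 2 without KO 3. Ccr2, the most abundant of them, was 195 to 282 CPM in KO and 128 to 236 CPM in WT. Of 6 tested mast cell and basophil markers 1 rose by edgeR, Kit (1.04 ± 0.22), and 2 were higher at an unadjusted p under 0.05. DESeq2 called 2 higher, Kit and Hdc, the latter named after its call was seen. The list summed to 38.1 to 39.9 CPM in KO and 18.4 to 29.3 CPM in WT. The mast cell proteases Mcpt4 and Tpsb2 were at 0 in every library. Of 6 tested T and NK cell markers 1 rose by edgeR, Klrb1c (1.39 ± 0.26), and 2 were higher at an unadjusted p under 0.05. DESeq2 called 2 higher, Klrb1c and Lck, the latter named after its call was seen. The sums of 111 to 161 CPM in KO and 94.7 to 151 CPM in WT were mostly Cd4. Cd3e, Cd3d and Cd8a did not pass the filter on low counts and Cd3g was at most 0.70 CPM, all named after their values were seen. With 1 library left out, Kit and Klrb1c were called only without WT 3, and with no filter on low counts Kit was not called. Their part in the higher Itgb7 was not tested. The 3 tested B cell markers included 1 that fell (Ebf1, at -1.07 ± 0.16, not called without KO 1 or WT 1), with sums of 24.8 to 28.1 and 25.5 to 29.3 CPM.

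Beside the lower Itgax, 0 of 8 tested dendritic cell markers were called by edgeR, though 3 were higher at an unadjusted p under 0.05 and DESeq2 called 2 higher. Their sum was 7.29 to 8.71 CPM in KO and 2.68 to 5.93 CPM in WT, and its largest part was Ccr9, with means of 3.78 CPM in KO and 1.17 CPM in WT. The list did not move one way: Zbtb46, which defines classical dendritic cells, was at most 1.97 CPM, with means of 1.08 CPM in KO and 1.57 CPM in WT and overlapping groups. Beside the lower Itga6 and the laminin and adaptor genes that fell, 3 of 12 stromal markers fell by edgeR and 0 rose, where 2 were higher and 5 lower at an unadjusted p under 0.05 and in DESeq2's calls. Those that fell were Pdgfra (-1.19 ± 0.16), Cxcl12 (-1.11 ± 0.22) and Pdgfrb (-0.87 ± 0.15). Thy1 (1.31 ± 0.37) and Eng (0.47 ± 0.14), named after their values were seen, were higher in every KO library than in any WT library and were the genes DESeq2 called higher. The stromal sum was 1212 to 1591 CPM in KO and 1541 to 1951 CPM in WT and was made up mainly of Col1a1 and Col1a2, so stromal transcripts were present in all 6 libraries. Without KO 1 or WT 1, 0 of the stromal markers were called lower, and 1 (Pdgfra) without KO 3. Their part in these differences was not tested. Of 9 neutrophil markers 0 were called by edgeR or DESeq2 and 1 was higher at an unadjusted p under 0.05, with sums of 683 to 1092 and 451 to 837 CPM, and of 4 tested megakaryocyte markers 0 were called by either and 1 was lower at an unadjusted p under 0.05, with sums of 438 to 820 and 437 to 635 CPM.

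The genes whose profile over the 6 libraries was nearest to that of Itgb7 were found among 13611 tested genes with a mean of at least 1 CPM, by the Euclidean distance between centred log2 CPM values. They were Cd69, a lectin of early lymphocyte activation (distance 0.36), Gem, a small GTPase (0.37), Gm11127 (0.38), Pvrig, an immune receptor (0.39), and Itih5 (0.39). Their log2 fold changes lay between 0.87 and 1.14, near that of Itgb7, as the choice by likeness makes them. With the same measure, chosen after the values were seen, Mmp12, the macrophage elastase, was nearest to Itgax (0.73) and Msr1 itself was next (0.79). Both fell in the knockout, at -2.32 and -2.02 on the log2 scale, as the choice by likeness makes them. Msr1 is the gene knocked out, so its likeness to Itgax is only a description.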

How the data were processed

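RNA sequencing counts were used for 3 MSR1 KO and 3 MSR1 WT macrophage libraries. The authors deposited whole-number read counts per gene, which are not normalized, beside normalized counts (the signal columns, each count divided by a size factor of its library) and their own comparison (a log2 fold change, a p-value and an adjusted p-value), none of which was used. The methods name TopHat, whereas the submitters' processing notes list fastp 0.17.1, HISAT2 2.1.0, DESeq2 1.18.1 and R 3.4.3. Which program counted the reads, whether it used strand, and on which build, is not given in the sources used here. Gene positions in the table matched GRCm38 for 49909 of 52403 gene IDs found in the annotation.

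Genes were filtered with filterByExpr (16402 of 52550 kept), scaled by TMM and fitted with edgeR 4.0.16 in R 4.3.3 (glmQLFit and glmQLFTest), genotype being the only term. P-values were adjusted by Benjamini-Hochberg over all tested genes and called under 0.05. The SE of a log2 fold change was its size over the square root of F. Levels were CPM per kb of merged exons, and promoter sequences came from RefSeq (7 of 10 members matched). Depth was 36143518 to 47417448 counts per library. The members and lists were chosen with earlier results of these data known. Besides the members, up to 4 called genes with the largest change and the 2 most abundant genes of each integrin list were named, with the 5 genes nearest to Itgb7, and other genes were named after their values were seen. Alternatives were DESeq2 1.42.0, other scalings and filters, a replicate block, each library left out, coding length and raw counts. A planned comparison of protein sequences was not run. Single genes of 2 lists that entered the counts are not reported here by name.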

Additional observations from a re-analysis of the deposited data

How the results depend on the processing

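Of 254 recomputed values, 201 were marked as the same, 53 were marked as moved and no called value reversed. A value marked as the same could still change. Itgav went from 0.037 to -0.497 without KO 2. The ligands called lower went from 5 to 6 without KO 2 and to 4 without WT 3. Itgav and Itgb5, which were not called, changed sign with 1 library left out (-0.497 to 0.434 and -0.06 to 0.133). The readthrough model Gm49368 did so too, from 0.071 to -0.03 without KO 3, and Itgav was -0.015 with the replicate block. The log2 fold change of Itgax lay between -2.71 and -2.27 in every fit run. Calls on the members are given as a description, since the same contrast had served to choose them. DESeq2 called 3 members higher (Itgal, Itga4 and Itgb7), 3 other subunits lower, and 1 ligand higher and 9 lower. It also called 4 genes of the activation, inhibitor, adaptor and kinase lists higher. Over all tested genes it called 720 higher and 848 lower, where edgeR called 369 and 436. By the study's definition of a call, 1 other subunit was higher and 2 lower, and 1 ligand was higher and 9 lower. With no filter on low counts, 3 ligands were lower and 1 gene of the activation to kinase lists was higher. With library size alone the log2 fold change of Itgb1 was -0.135.

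The replicate numbers did not pair the libraries: same-numbered KO and WT libraries deviated from their group means with correlations of -0.026, 0.019 and -0.005. With the replicate block, 1 member (Itgax) and 1 ligand were lower, and 0 genes of the activation to kinase lists were higher and 0 lower. With one library left out, 0 to 1 members were called higher and 1 to 2 lower, 0 to 1 other subunits higher and 0 to 1 lower, 0 to 1 ligands higher and 1 to 6 lower, and 0 to 3 genes of the activation to kinase lists higher and 0 to 3 lower. All tested genes gave 805 calls, 1568 by DESeq2, 525 with no filter, 137 with the block and 71 to 779 with a library left out, fewest without WT 1.

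Per kb of coding length, WT levels in CPM were 280 for Itgb2, 265 for Itgb1, 201 for Itgam, 169 for Itgb5, 93.8 for Itga6, 76.9 for Itga4, 31.7 for Itgax, 31.5 for Itgav and 21.6 for Itgal, which places Itga4 above Itgax and Itgav above Itgal. The Itgb7 share of Itgb1 plus Itgb7 was 7.55% in KO and 3.54% in WT on coding length and 7.62% and 3.58% on raw counts. With 3 libraries a group, small differences such as those of Itgb1 and Itgb2 rest on the spread of few values.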

Other observations

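Itgav separated the libraries in a way that the genotypes do not, with KO 2 (164 CPM) and WT 3 (146 CPM) above the other 4 libraries (59.3 to 80.7 CPM). With the measure of likeness used for Itgb7, and chosen after the values were seen, the nearest genes were Slamf8, an immune cell surface receptor (distance 0.45), Lpin2, a phosphatidate phosphatase (0.54), Cdsn (0.56), H2-DMb2, a chain of the class II peptide loader (0.56), and Casp12 (0.62). Slamf8 was 24.2 CPM in KO 2 and 17.8 CPM in WT 3, and 8.11 to 13.9 CPM in the other 4 libraries. Lpin2 was 238 CPM in KO 2 and 201 CPM in WT 3, and 126 to 154 CPM in the other 4. The genes were picked for this pattern, so their likeness is a description, and its cause was not tested.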
